A study of Mus musculus with 2 samples.

Results

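The chromatin remodelling and histone-modifying enzyme genes described here are those whose annotated symbol begins with Smarc, Hdac, Kdm, Kmt, Kat, Chd, Setd or Prmt. Added to these are the Polycomb repressive complex genes Ezh1, Ezh2, Eed and Suz12 and the acetyltransferase genes Ep300 and Crebbp. The DNA methyltransferase genes Dnmt1, Dnmt3a and Dnmt3b complete the set. The rule reads symbols and no measured value, though it was written with earlier results of these data known. A named probe with a value was present for 37 of them, out of 10141 named genes with a value. Another 58 of the 95 protein-coding RefSeq symbols that match these names, among them Smarca4, Chd4, Ezh2, Suz12, Ep300, Crebbp, Kmt2a and Kdm1a, had no such probe and were not analysed here. RNA came from mouse haematopoietic progenitor cells that lack E2A, the gene (Tcf3) that encodes the transcription factor E47. The E47ER group received the construct E47ER and the bHLHER group the construct bHLHER, whose names join E47 or the basic helix-loop-helix (bHLH) part to the letters used for the oestrogen receptor. In both groups 4-hydroxytamoxifen was given for 6 h from 48 h after infection, per the design text. Each group was measured on 1 CodeLink mouse array of 1 colour (Cy5), so no value below has a replicate and no test was possible. Strain, age, culture and pooling were not given in the sources used here, and no uninduced or uninfected array was used, so a ratio cannot be assigned to either group alone.

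Chromatin enzymes decide how tightly DNA is packed on nucleosomes and which marks the histones carry. Remodellers of the BAF family (Smarc subunits) and the CHD family use ATP to slide or evict nucleosomes. Acetyltransferases (Kat, Ep300, Crebbp) add acetyl groups that go with active genes, and deacetylases (Hdac) remove them. Methyltransferases (Kmt, Setd, Ezh, Prmt) and demethylases (Kdm) set and erase methyl marks on histones, while Dnmt enzymes methylate the DNA itself. In blood progenitors these enzymes act with lineage factors such as E proteins, whose activation domains are known to recruit the SAGA and p300/CBP acetyltransferases.

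Of the 37 members, 29 lay above the floor on both arrays, none on only 1 array and 8 on neither. The floor was each array's median over all 20289 probes, at an intensity of 0.957 on the E47ER array and 0.953 on the bHLHER array. Among the 29 measured members, 1 was at least 1.5-fold higher with E47ER, where 6.29% of the 5534 measured genes were, and 0 were at least 1.5-fold lower, where 6.32% were. No member was 2-fold apart in either direction. Over all measured genes, 2.31% reached 2-fold on the higher side and 0.813% on the lower side. These are thresholds of size and not tests, and shares of 29 genes this small do not set the members apart from all genes. With ratios centred on pan-leukocyte genes (described below), 13 members passed 1.5-fold on the lower side, 3 of them 2-fold, and 0 on the higher side. Of the 5534 measured genes, 2529 then passed 1.5-fold on the lower side, 516 of them 2-fold, and 118 on the higher side.

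The log2 ratios of E47ER over bHLHER ran from -0.55 for Smarca2 to 0.68 for Hdac7. Their median was 0.03, beside -0.05 for all measured genes, and 15 lay above 0 and 14 below. The median size of a member's log2 ratio was 0.30, and that of all measured genes 0.23. The middle 50% of measured genes ran from -0.27 to 0.18 and held 13 of the 29 members, with 9 members above it and 7 below. All 29 lay within the middle 95%, from -0.79 to 0.96. At a smaller threshold of 1.3-fold, chosen after the values were seen, 5 members (17.2%) were higher with E47ER, where 11.6% of measured genes were, and 5 (17.2%) lower, where 16.2% were. The higher members were Hdac7, Hdac5, Dnmt1, Dnmt3b and Kdm5a, and the lower ones Smarca2, Smarce1, Smarcc1, Smarcb1 and Dnmt3a. The only measured error was technical: where 2 measured probes read the same gene, as they did for 34 genes, their log2 ratios lay a median of 0.236 apart. The SD of this difference between probes was 0.758. Of the 29 members, 18 (62.1%) had a log2 ratio larger in size than 0.236, as did 49.4% of all measured genes. This spread holds differences between probes read on the same 2 arrays, so an effect shared by a whole array cancels in it. It does not hold the spread between arrays or between cultures. As a difference of 2 log2 ratios, it is only a rough scale for the size of a single one.

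**Figure D1:**
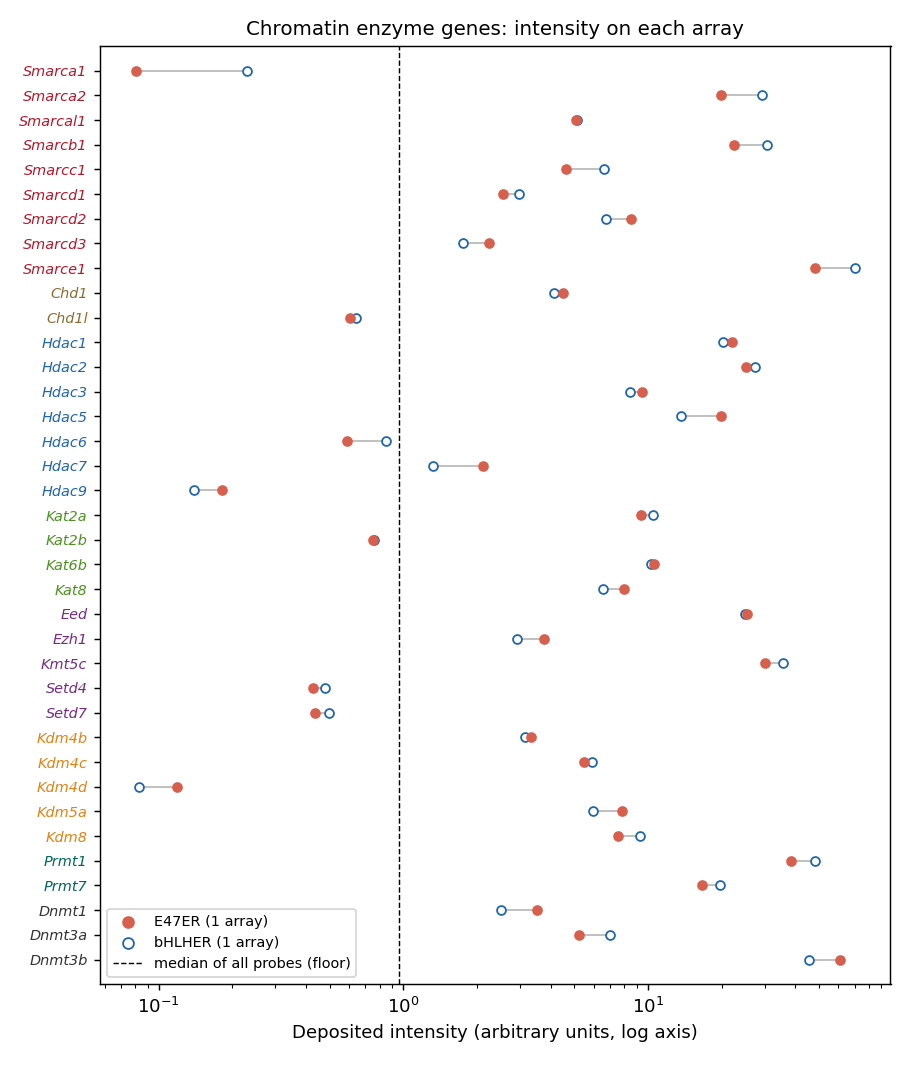
Deposited intensity (x axis, arbitrary units, log scale) of each of the 37 chromatin enzyme genes on the E47ER array (filled) and the bHLHER array (open), 1 array each, with symbols coloured by family and a dashed line at the E47ER floor of 0.957. All 29 genes right of the line have points less than 2-fold apart, and 8 genes lie left of the line on both arrays.

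**Figure D2:**
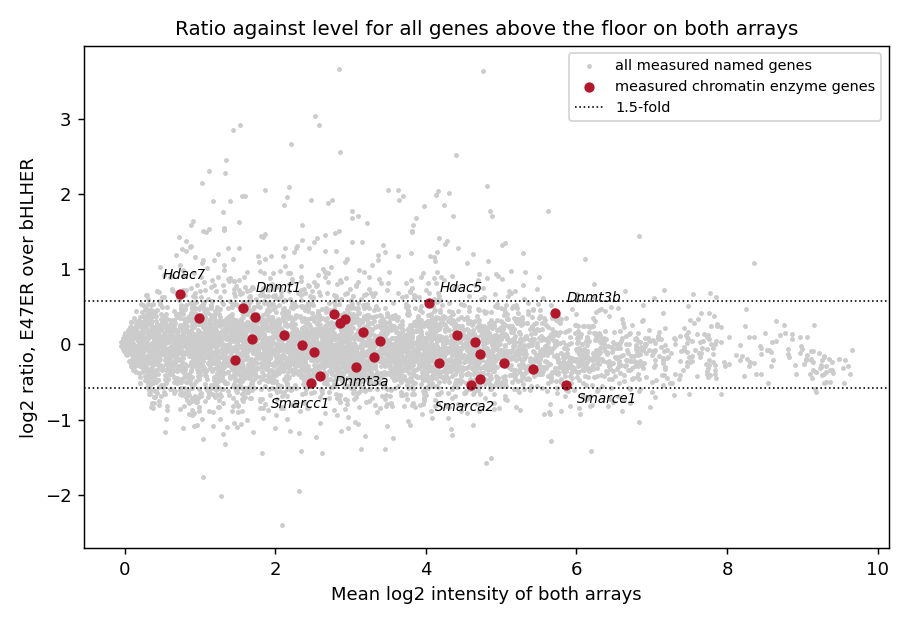
Log2 ratio of E47ER over bHLHER (y axis) against the mean log2 intensity of both arrays (x axis) for 5534 measured genes (grey) and 29 chromatin enzyme genes (red), with dotted lines at 1.5-fold. Hdac7, at 0.68, is the 1 member outside the dotted lines.

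Beside every ratio given here, some lists of cell type markers differed between the arrays, while markers of the labelled progenitor cells had no common direction. Of 12 haematopoietic progenitor markers with a value, 9 were measured on both arrays with a median log2 ratio of -0.0034. Of these 9 genes, 4 lay above 0 and 5 below. Kit was at 2.997 with E47ER against 2.66 with bHLHER, Flt3 at 2.19 against 1.997 and Spi1 at 6.75 against 5.33. Tal1 (22.4 against 22.5), Etv6 (2.93 against 3.06) and Runx1 (1.68 against 1.56) were nearly level. Lmo2 was at 8.78 against 15.5 (-0.82), Hoxa9 at 1.52 against 2.18 (-0.52) and Meis1 at 20.5 against 28.5 (-0.47), while Gata2, Sox4 and Erg lay below the floor. Of 17 pan-leukocyte genes, all measured, 13 had a log2 ratio above 0 (median 0.50, summed intensity 967.7 with E47ER and 593.8 with bHLHER). Of 15 measured stromal and fibroblast genes, 14 lay below 0 (median -0.81, summed intensity 178.2 and 298.9), and the further 4 with a value, Postn, Lum, Thy1 and Dcn, were below the floor on both arrays. Granulocyte and monocyte markers had a median of -0.23 over 6 measured of 13 with a value, 1 above 0 and 5 below. Mmp8 had the lowest ratio, at 2.15 with E47ER against 5.87 with bHLHER, and Fcgr3 the highest, at 28.3 against 27.4. Itgam went the other way (1.69 against 0.487), but passed the floor on the E47ER array alone and is not in that median. The early B, early T and erythroid and megakaryocyte lists had 3 of 11, 1 of 9 and 3 of 9 markers above the floor on both arrays. Some markers of the lymphoid lists stood far apart. Il7r was at 25.2 with E47ER against 6.05 with bHLHER, Lat at 4.84 against 0.977 and Rag2 at 5.95 against 12.4. Cd79a, also measured on both arrays, was closer, at 12.0 against 9.83. A further 3 early B and 3 early T markers lay above the floor with E47ER only. Among them were Ly6d (15.5 against 0.188), Cd7 (10.3 against 0.730) and Ptcra (2.05 against 0.254). Rag1 (1.024 against 0.921) and Vpreb1 (1.296 against 0.847), also among them, were close to the floor. Cd22 passed the floor with bHLHER only (0.878 against 0.984). Below the floor on both arrays were 4 early B markers, with Ebf1 and Pax5 among them, and 5 early T markers. Of the erythroid and megakaryocyte markers, Tfrc was at 39.8 against 9.79, and Gfi1b, above the floor with bHLHER only, at 0.890 against 2.18. The other measured markers of that list were nearly level and near the floor, Gp9 at 1.28 against 1.20 and Hba-a1 at 1.03 against 1.11. Proliferation genes had a median of 0.45 over 16 measured genes, 15 of them above 0. The part of cell composition or cycling in the members' ratios was not tested, and in bulk RNA fewer cells of a type and less RNA per cell cannot be told apart. When ratios were centred on the pan-leukocyte genes, every log2 ratio was lower by 0.50, and 13 of the 15 members above 0 lay below it. The distance of a gene or family from the median of all measured genes is the same before and after such a shift, so for families it is given as well.

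The BAF subunit genes held the lowest ratios of the members. Of 8 measured Smarc genes, 5 lay below the median of all measured genes and 3 above, with a family median of -0.33, or -0.28 from the all-gene median. Smarca2, which encodes BRM, an ATPase that drives the BAF complex, was at an intensity of 19.99 in the E47ER group and 29.2 in the bHLHER group, a log2 ratio of -0.55. Smarce1, a DNA-binding HMG-box subunit, was at 48.0 against 70.0 (-0.54), and Smarcc1, a scaffold subunit on which the complex assembles, at 4.64 against 6.60 (-0.51). Smarcb1, a core subunit that contacts the nucleosome, was at 22.4 against 30.7 (-0.45). The E47ER value was the lower in all 4 of these genes, between 1.37- and 1.46-fold, short of the 1.5-fold threshold. With the pan-leukocyte centring their log2 ratios were -1.05, -1.04, -1.01 and -0.95 in the order given, so that Smarca2, Smarce1 and Smarcc1 passed 2-fold. The same centring raised the number of measured genes at least 2-fold lower from 45 to 516 of 5534. Of measured genes, 7.55% had a lower ratio than Smarca2 and 11.6% a lower ratio than Smarcb1.

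The Smarcd genes, whose products are alternative subunits of the same position in the BAF complex, did not share a direction. Smarcd1 was at 2.56 with E47ER and 2.97 with bHLHER, a log2 ratio of -0.21. Smarcd2, needed in mice for the making of neutrophils, was at 8.54 against 6.76, a log2 ratio of 0.34. Smarcd3, known for its part in heart and muscle development, was at 2.24 against 1.76 (0.35). The log2 ratios of Smarcd2 and Smarcd1 were 0.55 apart and those of Smarcd3 and Smarcd1 0.56 apart. Of the 34 genes with 2 measured probes, 5 had probes that disagreed by more than either distance. Smarcal1, an annealing helicase of stalled replication forks that is no BAF subunit, was level at 5.08 against 5.11. Smarca1, an ATPase of the ISWI remodellers, lay below the floor at 0.0808 and 0.229, and no fold is given for it.

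**Figure D3:**
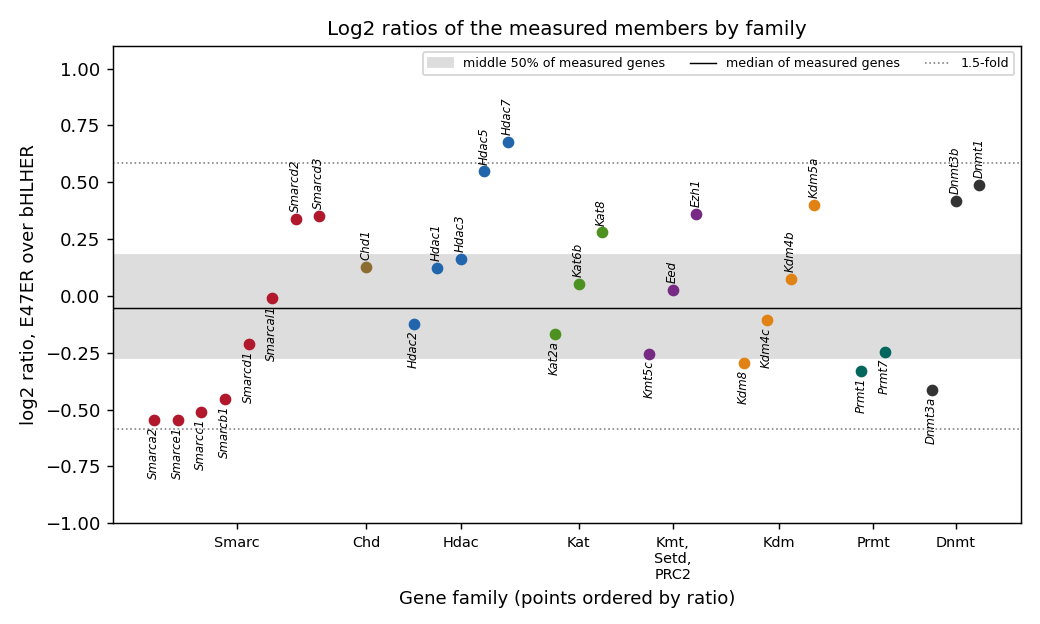
Log2 ratio of E47ER over bHLHER (y axis) of the 29 measured chromatin enzyme genes, grouped by family along the x axis and ordered by ratio within it, 1 array per group. The grey band is the middle 50% of 5534 measured genes (-0.27 to 0.18), the black line their median (-0.05) and the dotted lines 1.5-fold; 4 Smarc genes lie below the band, and Hdac7 is beyond the upper dotted line.

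The CHD family was represented by Chd1 and Chd1l. Chd1, a remodeller that binds methylated histone tails at active genes, was at 4.51 with E47ER and 4.14 with bHLHER (log2 ratio 0.13). Chd1l, a remodeller that responds to DNA damage, lay below the floor on both arrays (0.607 and 0.640).

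Histone deacetylase genes held the highest ratios, both in class IIa. Hdac7, a deacetylase known to restrain gene programmes in thymocytes and B cell progenitors, was at 2.11 with E47ER and 1.32 with bHLHER. It was 1.60-fold higher (log2 ratio 0.68), and 4.95% of measured genes had a higher ratio. Its bHLHER value lay near the floor of 0.953, and its log2 ratio was 0.18 with the pan-leukocyte centring, below the threshold. Hdac5, of the same class, was at 19.9 against 13.6, a log2 ratio of 0.55 or 1.46-fold, which passed 1.5-fold after loess normalization (0.62) and was 0.05 with the centring. Hdac9, the remaining class IIa gene with a value, was below the floor on both arrays (0.181 and 0.140).

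The class I deacetylase genes, which encode the catalytic subunits of the Sin3, NuRD and NCoR corepressors, were closer to level. Hdac1 was at 22.2 with E47ER against 20.3 with bHLHER (log2 ratio 0.12). Hdac2, its close paralogue, was at 25.3 against 27.5 (-0.12). Their log2 ratios were 0.25 apart, a distance that 16 of the 34 genes with 2 measured probes exceeded between their own probes. Hdac3, the partner of the NCoR corepressors, was at 9.48 against 8.47 (0.16). Hdac6, a mostly cytoplasmic deacetylase of tubulin, was below the floor at 0.591 and 0.848.

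E47 binds DNA at E-boxes, whose general form is CANNTG, so the sequence before the start of the genes with the highest and lowest ratios is shown. The highest were Hdac7 and Hdac5, and the lowest that the RefSeq promoter table holds were Smarca2 and Smarcc1; the table did not hold Smarce1. Each sequence is the 250 bases before the most upstream start listed by RefSeq (build GRCm38.p6), 5′ to 3′ on the gene's strand, in lower case with every CANNTG in capitals. The windows are chr15:97844503-97844752 on the minus strand for Hdac7, the most upstream of 4 listed starts, and chr11:102230173-102230422 on the minus strand for Hdac5. They are chr19:26604910-26605159 on the plus strand for Smarca2 and chr9:110131774-110132023 on the plus strand for Smarcc1.
Hdac7: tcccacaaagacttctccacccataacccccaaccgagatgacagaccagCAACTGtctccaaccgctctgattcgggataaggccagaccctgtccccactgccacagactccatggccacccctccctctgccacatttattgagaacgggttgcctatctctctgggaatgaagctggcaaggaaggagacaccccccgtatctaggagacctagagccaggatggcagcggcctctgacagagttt
Hdac5: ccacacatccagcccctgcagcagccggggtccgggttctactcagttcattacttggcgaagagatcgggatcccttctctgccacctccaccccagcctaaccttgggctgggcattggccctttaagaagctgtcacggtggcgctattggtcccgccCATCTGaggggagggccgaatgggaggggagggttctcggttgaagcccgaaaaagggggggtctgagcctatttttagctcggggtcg
Smarca2: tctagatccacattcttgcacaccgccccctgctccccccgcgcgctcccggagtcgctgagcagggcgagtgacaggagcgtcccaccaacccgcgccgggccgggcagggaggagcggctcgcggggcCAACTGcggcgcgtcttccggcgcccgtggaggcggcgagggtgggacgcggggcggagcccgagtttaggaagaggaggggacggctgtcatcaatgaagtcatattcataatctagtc
Smarcc1: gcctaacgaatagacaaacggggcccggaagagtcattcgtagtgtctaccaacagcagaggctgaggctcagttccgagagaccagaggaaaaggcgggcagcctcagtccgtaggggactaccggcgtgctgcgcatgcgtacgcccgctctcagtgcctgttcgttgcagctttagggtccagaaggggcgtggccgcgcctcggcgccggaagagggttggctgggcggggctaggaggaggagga
The Hdac7 window held the E-box CAACTG, starting 200 bases before the gene start, and the Smarca2 window held the same letters starting 120 bases before it. The Hdac5 window held CATCTG, starting 89 bases before the start, and the Smarcc1 window held no CANNTG. The form CAGCTG was absent from these 4 windows. So were CAGGTG and its reverse complement, which reads CACCTG. Of 23 measured members in the table, 14 held a CANNTG, 4 a CAGGTG or CACCTG and 2 a CAGCTG, where 66.1%, 17.1% and 12.7% of 27025 genes did. CANNTG covers the other motifs, and both strands were searched. The 4 with CAGGTG or CACCTG were Dnmt3b, Ezh1, Kat8 and Smarcd2, whose log2 ratios were 0.42, 0.36, 0.28 and 0.34. With the pan-leukocyte centring these were -0.08, -0.14, -0.22 and -0.16. Those with CAGCTG were Kdm4c (-0.11) and Smarcd3 (0.35), at -0.61 and -0.15 with that centring. None of these forms was in the windows of Hdac7, Hdac5 and Dnmt1, with higher ratios than these genes, or of Smarca2 and Smarcc1. Ratios of genes outside the members that hold these forms were not compared, so those of the few members named carry no link to a motif. The shares cover all genes in the promoter table, measured here or not. A match of letters is a description and not a binding site.

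The DNA methyltransferase genes divided. Dnmt1, which copies methylation to the new strand after replication, was at 3.53 with E47ER and 2.52 with bHLHER, a log2 ratio of 0.49, which was -0.01 with the pan-leukocyte centring. Dnmt3b, which sets new methylation, was at 60.9 against 45.6, a log2 ratio of 0.42, which was -0.08 with that centring. Dnmt3a, the other de novo enzyme and a regulator of blood stem cell renewal, was at 5.23 against 6.97 (-0.41). The log2 ratios of Dnmt3b and Dnmt3a were 0.83 apart, and those of Dnmt1 and Dnmt3a 0.90, distances that no centring alters. Between their own probes, 2 of the 34 genes with 2 measured probes differed by more than either. Uhrf1, which brings Dnmt1 to newly replicated DNA, was at 79.0 against 52.6 (1.503-fold higher). Ratios of the proliferation genes, with their median of 0.45, ran from -0.11 to 0.69, a range that holds those of Dnmt1, Dnmt3b and Uhrf1. Mcm6 was at 48.8 against 32.2 and Top2a at 111.1 against 79.2. Pcna was level at 159.0 against 158.4. Mcm5 (70.9 against 68.8), Plk1 (5.27 against 5.06), Cdk1 (112.3 against 106.7) and Cdc20 (35.5 against 38.2) were nearly so. The part of cycling in the Dnmt1 and Dnmt3b ratios was not tested.

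Acetyltransferase genes stayed within 1.3-fold. Kat8, also called MOF, an acetyltransferase of histone H4, was at 7.97 with E47ER against 6.56 with bHLHER (log2 ratio 0.28). Kat6b, of the MYST group, was read by 2 probes above the floor, at 10.6 against 10.3 and at 1.67 against 1.48. Their log2 ratios were 0.05 and 0.18, closer to each other than the median of 0.236 for paired probes. Kat2a, the GCN5 subunit of SAGA, was at 9.37 against 10.5 (-0.17), and its paralogue Kat2b, or PCAF, lay below the floor at 0.751 and 0.759.

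Of the 3 measured members that are histone lysine methyltransferase or Polycomb genes, 2 lay above the all-gene median and 1 below. Ezh1, a catalytic subunit of Polycomb repressive complex, was at 3.76 with E47ER against 2.93 with bHLHER (log2 ratio 0.36). Eed, the subunit of the same complex that reads its histone mark, was at 25.4 against 24.96 (0.03). Kmt5c, which methylates histone H4 in silent chromatin, was at 30.03 against 35.8 (-0.25). Setd4 (0.425 and 0.478) and Setd7 (0.434 and 0.497), both lysine methyltransferases, were below the floor on both arrays.

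Among the demethylase genes, Kdm5a, which erases a histone mark of active promoters, had the highest ratio, at 7.85 with E47ER against 5.95 with bHLHER (log2 ratio 0.40). Kdm8 was at 7.56 against 9.29 (-0.30). Kdm4b was at 3.32 against 3.15 (0.07) and Kdm4c at 5.49 against 5.91 (-0.11). Both encode erasers of a repressive histone mark and differed by less than the 0.236 typical of paired probes. Kdm4d, of the same group, lay below the floor at 0.119 and 0.0833.

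The arginine methyltransferase genes Prmt1 and Prmt7 had nearly the same ratio. Prmt1, the main enzyme of asymmetric arginine dimethylation, was at 38.3 with E47ER against 48.2 with bHLHER (log2 ratio -0.33). Prmt7, which adds single methyl groups, was at 16.6 against 19.7 (-0.25). The log2 ratios were 0.08 apart, and both lay below the median of all measured genes.

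Chromatin genes outside the named families were then described from a list of 140 subunits and modifiers, chosen with earlier results of these data known. Of 88 with a value, 69 were measured on both arrays, with a median log2 ratio of -0.13 beside -0.05 for all measured genes. At least 1.5-fold higher with E47ER were 2 of them, and at least 1.5-fold lower 6, where 6.29% and 6.32% of measured genes were. The higher genes were Uhrf1 and Phf10, a subunit of the PBAF form of the BAF complex, at 46.6 against 28.4 (1.64-fold).

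The lower genes came from several complexes. Ehmt2, also called G9a, a methyltransferase of silent chromatin, was at 10.6 with E47ER against 18.6 with bHLHER (1.74-fold lower). Suv39h2, another such enzyme, was at 1.01 against 1.54, near the floor (1.52-fold). Sap30, a Sin3 corepressor subunit, was at 38.0 against 65.6 (1.73-fold). Ino80, a remodeller ATPase, was at 8.84 against 15.2 (1.72-fold), and Ruvbl2, an ATPase subunit of the INO80 complex among others, at 93.3 against 141.4 (1.51-fold). Riox1, a ribosome- and histone-directed oxygenase, was at 9.45 against 14.3 (1.51-fold). None of the 69 genes measured on both arrays was 2-fold apart in either direction, where 2.31% of all measured genes were higher and 0.813% lower. With so few genes, this does not set the list apart from all genes. The counts for this list are without the pan-leukocyte centring, which lowers every log2 ratio by 0.50 and so raises the counts on the lower side.

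The list was also divided by complex, a grouping made after the members' values were seen. The BAF and PBAF subunits outside the Smarc names had a median log2 ratio of 0.19 over 7 measured genes, against -0.45 over the 7 BAF subunits with Smarc names, which are 0.24 and -0.40 from the all-gene median. Brd7, a PBAF subunit, was at 49.8 with E47ER against 33.9 with bHLHER (log2 ratio 0.55), Actl6a at 46.0 against 39.3 (0.23) and Bcl7b at 12.4 against 16.5 (-0.41). The median of 0.19 leaves out Dpf1 (0.910 against 1.64) and Dpf3 (0.860 against 0.997), which lay above the floor with bHLHER only. The BAF subunits had ratios on both sides of the all-gene median, in the Smarc genes and outside them. Of 13 measured NuRD, Sin3 and NCoR subunit genes outside the Hdac names, 11 lay below the all-gene median and 2 above. Their median was -0.15, or -0.10 from the all-gene median. Of the Hdac genes of these corepressors, Hdac1 (0.12) and Hdac3 (0.16) lay above the all-gene median and Hdac2 (-0.12) below. The other methyltransferases and their subunits had a median of -0.36 over 9 genes, or -0.31 from the all-gene median, and 7 of them lay below it. The Polycomb genes outside the members had a median of -0.10 over 8 genes, with 3 above the all-gene median and 5 below. The sirtuins, deacetylases that depend on NAD, had a median of -0.04 over 4 genes. Hells, a remodeller needed for DNA methylation, was at 6.69 against 5.35 (0.32).

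**Figure D4:**
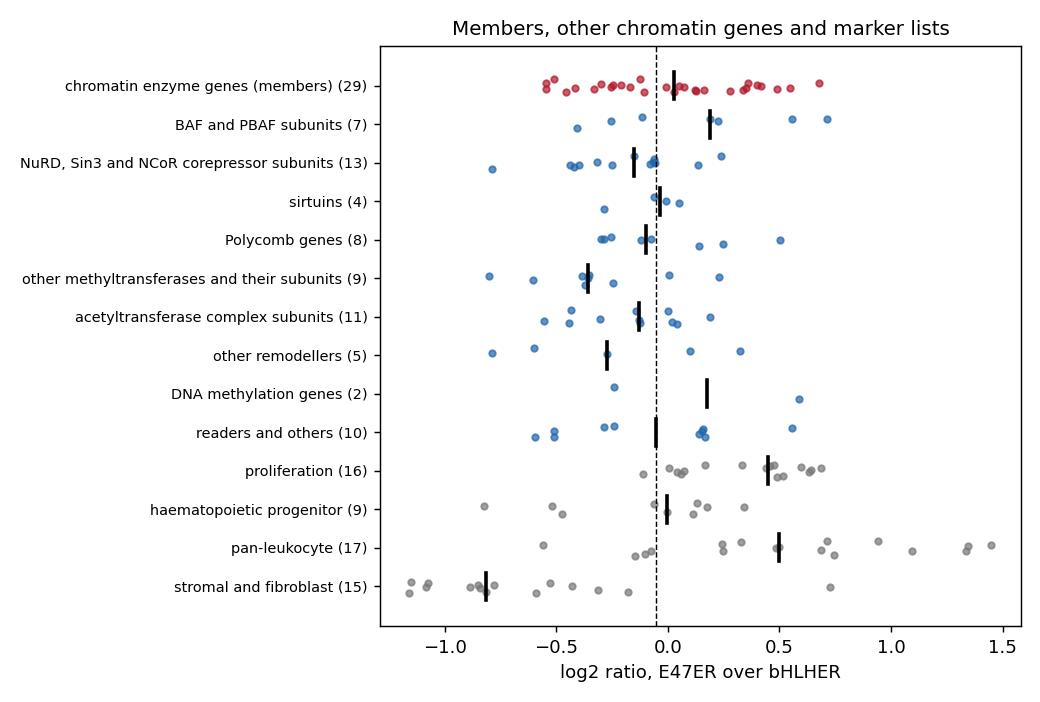
Log2 ratio of E47ER over bHLHER (x axis) of each measured gene in the members (red), other chromatin genes by complex (blue) and marker lists (grey), with the number of measured genes in brackets, a black bar at each median and a dashed line at the median of all measured genes (-0.05). The members' median of 0.03 lies near the dashed line, and the proliferation (0.45), pan-leukocyte (0.50) and stromal (-0.81) lists lie away from it.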

How the data were processed

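RNA was measured on 2 arrays, 1 per group, on the CodeLink mouse 20k platform per the labels. The authors deposited linear intensities for 20289 probes; no source used here gives their scaling, background removal or software. The array medians differed by 0.418%, so the deposited intensity was used without further normalization. Probes were named through the platform annotation, which gave 1 symbol to 10349 probes and left 9940 unnamed here; every symbol was the same after update through the RefSeq gene table (GRCm38.p6). Where a gene had more than 1 probe, the brightest by its mean was used. Log2 ratios of E47ER over bHLHER were computed with pandas 2.3.3, and genes above each array's median on both arrays were called measured. Probes without a value or at or below 0 stayed out of ratios. With 1 array per group no test was run, and the number of arrays limits the precision. An intensity depends on its probe, so levels of different genes were not compared.

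All measured members past 1.5-fold, 40 fixed members of which 22 had a value, and the extremes of each family were to be named; the remaining members were named to account for each. The members, lists and rules were chosen with earlier results of these data known. Alternatives were quantile and loess normalization (limma 3.58.1, span 0.3), 75th percentile scaling, centring on pan-leukocyte genes, floors at the 25th and 75th percentiles or none, the mean over probes, a pseudocount of each array's 25th percentile and platform symbols.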

Additional observations from a re-analysis of the deposited data

How the results depend on the processing

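No paired analysis was possible because there was 1 array per group, which also left no replicate to drop. The members' median minus that of all measured genes was 0.08. It was 0.10 after loess, 0.04 with the floor raised to the 75th percentile and 0.0090 with no floor, and turned to -0.02 with the floor lowered to the 25th percentile. The centring and the 75th percentile scaling leave it as it is by construction. The count at least 1.5-fold higher, 1 in the main setting, was 2 after loess, and 0 both with the pan-leukocyte centring and when the floor was raised to the 75th percentile, which leaves 18 members. The count at least 1.5-fold lower, 0 in the main setting, was 13 with the centring and 1 with no floor, and at 2-fold lower it was 3 and 1; the gene with no floor was Smarca1, below the floor on both arrays. At 1.3-fold the 5 higher and 5 lower members became 0 and 17 with the centring, and 3 and 3 with only genes above the 75th percentile. Over all measured genes, the 644 higher and 895 lower at 1.3-fold became 170 and 3905 with the centring. With only genes above the 75th percentile they were 255 and 473 of 2884. The centring lowers every ratio by construction: over all measured genes, it changed the counts at 1.5-fold from 348 higher and 350 lower to 118 and 2529. It changed the count at 2-fold lower from 45 to 516. Apart from the centring, 1 member changed sign, Smarcal1 after loess. With no floor the 1.5-fold counts over all genes were 1161 and 1065, at the 25th percentile 553 and 524, and at the 75th 130 and 159.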
